A study of Mus musculus with 24 samples.

Results

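The imprinted growth genes Igf2, H19, Peg3, Dlk1, Meg3, Cdkn1c, Grb10, Plagl1 and Gnas were followed in visceral fat of mice. They are the rows of the deposited count table that carry these 9 symbols, chosen by name; the table holds 27179 genes. All 9 were found and passed the low-count filter, which kept 17824 genes for testing. The tissue, labelled visceral/perigonadal adipose tissue, came from females and males of 27 to 33 weeks. Every mouse carried Cre recombinase driven from the Foxp3 locus, which is active in regulatory T cells. Controls carried that Cre alone (Foxp3cre), the Pparg knockouts lacked the fatty acid receptor gene Pparg in cells with the Cre (PpargFoxp3cre), and the Tbet knockouts lacked T-bet, a transcription factor, in those cells (TbetFoxp3cre). Each of the 6 groups of genotype and sex had 4 libraries, 2 from each of 2 batches that the labels name without saying what they are. Here replicates 1 and 3 are batch 1 and replicates 2 and 4 are batch 2. The titles number the libraries of a group 1 and 2 within each batch. They do not say whether a number stands for the same mouse in both batches. The deletion was in immune cells, whereas RNA was taken from whole fat. Nothing in the sources used here says that libraries come from separate animals, so the p-values below measure the spread between libraries.

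Imprinted genes are transcribed mainly from the copy inherited from 1 parent, because DNA methylation set in the egg or the sperm marks one of the copies. Many act on growth before birth, paternally expressed ones such as Igf2 often promoting it and maternally expressed ones such as H19, Cdkn1c and Grb10 often restraining it, and most are turned down after birth. In fat, Dlk1 is known as an inhibitor of adipocyte differentiation, and Mest, a further paternally expressed gene, is known as a marker of fat tissue expansion; Mest served here as the reference against which the 9 genes were correlated. Bulk counts do not separate the parental copies, and in whole tissue fewer cells of a type and less RNA per cell cannot be told apart.

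Most of the findings below concern H19, Meg3 and Grb10, which were lower in males than in females in all 3 genotypes; Peg3 is the gene nearest to a call in a knockout comparison. On mouse build GRCm38 the paternally expressed growth factor gene Igf2 (chromosome 7, 142650768 to 142666816) lies beside the maternally expressed long non-coding RNA H19 (chromosome 7, 142575530 to 142578146), with which it shares a methylated control region. H19 is also the primary transcript of miR-675, whose mature arms are printed from RefSeq (GRCm38.p6) because they are the part of H19 with a known product. They lie on the minus strand within annotated H19 exons, at chr7:142577112-142577133 for the 5p arm and chr7:142577078-142577099 for the 3p arm. Capitals mark the seed, bases 2 to 8; the 2 arms share no seed.
mmu-miR-675-5p: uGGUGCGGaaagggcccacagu
mmu-miR-675-3p: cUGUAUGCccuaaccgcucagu

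Dlk1 (chromosome 12, 109452485 to 109463336) and the long non-coding RNA Meg3 (chromosome 12, 109540996 to 109571729) form a second imprinted pair. Grb10, an adaptor that binds the insulin and IGF1 receptors, lies at chromosome 11, 11930499 to 12037428, and Peg3, a zinc finger gene, at chromosome 7, 6703892 to 6730462. RefSeq promoters were at hand for 7 of the 9 genes. The 250 bases before the start are shown for the outermost of the 2 promoters that RefSeq gives for each of Meg3 and Grb10, both lower in males, and for the Peg3 promoter, at chr12:109540746-109540995 on the plus strand, chr11:12037421-12037670 on the minus strand and chr7:6730420-6730669 on the minus strand. The promoter starts used for Grb10 (12037420) and Peg3 (6730419) lie inside the gene ends given above. Both of these windows therefore overlap the gene by some bases. Capitals mark matches to the 5 motifs searched on both strands: GGGGCCCC (bound by PLAGL1), TGACGTCA (the cAMP response element, CRE), GGTCA and TGACC with any 3 bases between them (oestrogen response element), AGAACA and TGTTCT with any 3 bases between them (androgen response element), and AANATGG followed at once by CGGC (YY1).
Meg3: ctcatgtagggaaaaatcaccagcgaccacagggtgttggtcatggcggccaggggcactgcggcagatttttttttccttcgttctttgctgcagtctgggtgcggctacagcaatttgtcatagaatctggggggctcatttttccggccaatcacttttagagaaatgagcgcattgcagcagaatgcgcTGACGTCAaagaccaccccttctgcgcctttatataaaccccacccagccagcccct
Grb10: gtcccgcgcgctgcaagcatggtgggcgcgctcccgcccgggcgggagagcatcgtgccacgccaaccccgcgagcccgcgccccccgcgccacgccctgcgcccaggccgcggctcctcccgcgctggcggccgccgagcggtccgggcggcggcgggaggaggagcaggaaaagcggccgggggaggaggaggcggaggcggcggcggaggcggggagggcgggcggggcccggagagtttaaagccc
Peg3: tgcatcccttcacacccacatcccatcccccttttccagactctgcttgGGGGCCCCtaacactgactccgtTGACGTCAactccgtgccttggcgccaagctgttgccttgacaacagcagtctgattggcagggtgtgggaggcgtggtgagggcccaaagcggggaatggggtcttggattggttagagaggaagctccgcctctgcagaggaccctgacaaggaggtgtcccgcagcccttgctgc

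The CRE letters stood 57 bases before the Meg3 start and 178 bases before the Peg3 start, and the PLAGL1 letters 201 bases before the Peg3 start. Among 32851 mouse promoter windows of this length, 1.55% held TGACGTCA and 0.889% held GGGGCCCC. The other motifs stood in 0.0639% (oestrogen), 0.00913% (androgen) and 0.347% (YY1) of windows and in none of those at hand for the 9 genes. The printed Grb10 window held none of the 5 motifs and 40 CpG dinucleotides, where the median window held 6; the printed Meg3 window held 10 and the Peg3 window 8. The second promoter window held 8 CpG for Grb10 and 0 for Meg3, and none of the motifs. The bases after the printed Grb10 start were not found in a GENCODE transcript of Grb10, whereas those after its second start were.

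Library totals ranged from 8345575 to 31022845 counts. Levels are given as CPM, counts brought to a common library size after TMM scaling, a unit that compares 1 gene between libraries. Markers of mature adipocytes were detected in every library, with none of 12 at 0. Control female replicate 1 held transcripts of the female reproductive tract (summed marker level 5790 CPM against a median of 94.8 CPM over females) and Tbet knockout male replicate 4 those of the male tract (4280 CPM against a median of 0.905 CPM over males). All results below were also computed without these 2 libraries, a choice made after seeing the data.

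To rank the genes against each other, the authors' log2 FPKM values, which are per transcript length, were used. Gnas, whose main product is the stimulatory G protein alpha subunit, was the highest, with group means of log2 FPKM from 7.47 to 7.64. Cdkn1c, the cell cycle inhibitor p57, came next with group means from 4.43 to 4.99, followed by Grb10 (3.72 to 4.52) and the zinc finger gene Plagl1 (3.39 to 4.19), whose ranges overlapped. Meg3 (1.54 to 3.48) overlapped with both Igf2 (1.52 to 2.39) and Peg3 (0.41 to 2.06). H19 ranged from -3 in control males to 0.98 in Pparg knockout females, and Dlk1 from -2.75 to -1.33, so both were near the bottom of the set. In counts, H19 rested on 4 to 29 reads per male library and 24 to 207 per female library, and Dlk1 on 7 to 70 reads in all libraries.

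**Figure D1:**
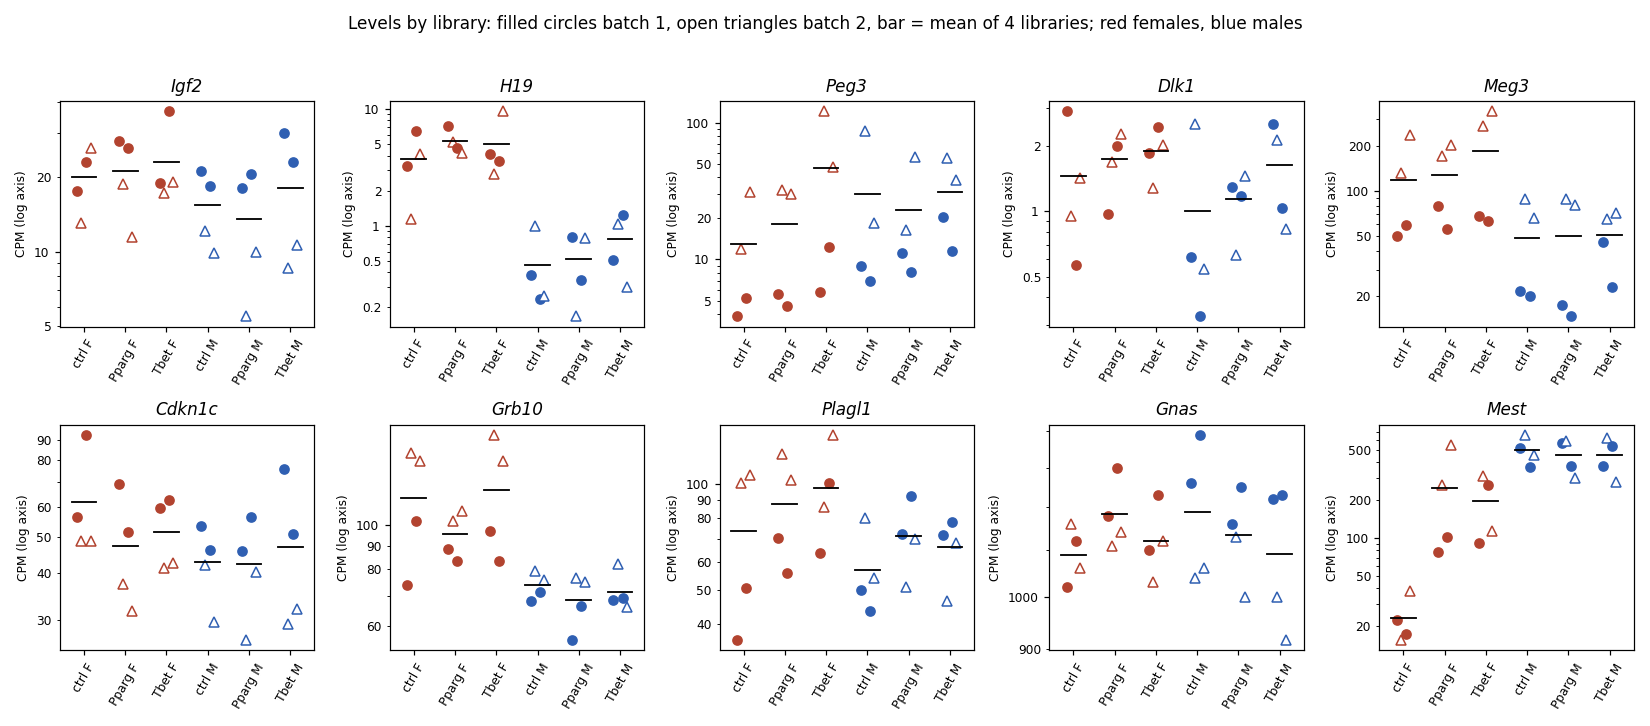
Levels of the 9 genes and of Mest in each library, in CPM on a log axis, by group (ctrl, control; F, females; M, males); filled circles are batch 1, open triangles batch 2, the bar is the mean of 4 libraries. H19, Meg3 and Grb10 sit lower in males, Mest lowest in control females, and Peg3 and Meg3 higher in batch 2.

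Males and females were compared within each genotype. In controls 4 of the 9 genes were lower in males and none higher (edgeR quasi-likelihood test, Benjamini-Hochberg adjusted p under 0.05 over all genes tested), where 27.2% of all genes were called and 13.6% were called lower. In Pparg knockouts 3 of 9 were lower, against 8.77% of all genes called and 5.18% called lower, and in Tbet knockouts 3 of 9 were lower, against 9.31% and 5.38%. H19, Meg3 and Grb10 were the members lower in males in all 3 genotypes, as were 3.07% of all genes. The median log2 fold change of the 9 genes was -0.52 in controls, -0.48 in Pparg knockouts and -0.46 in Tbet knockouts, where the medians of all genes tested were -0.04, 0.01 and 0.03.

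H19 showed the widest gap between the sexes among the 9 genes. Control females (replicates 1 to 4) had 3.25, 1.15, 6.51 and 4.14 CPM and control males 0.379, 0.992, 0.234 and 0.25 CPM. Pparg knockout females had 7.15, 5.18, 4.64 and 4.18 CPM, whereas Pparg knockout males had 0.794, 0.167, 0.341 and 0.789 CPM. Tbet knockout females had 4.09, 2.8, 3.62 and 9.6 CPM and Tbet knockout males 0.508, 1.03, 1.23 and 0.301 CPM. The sexes did not overlap within any genotype. The same held, in either direction, for 15.7% of all genes in controls, 9.06% in Pparg knockouts and 12.4% in Tbet knockouts. Control female replicate 2 was the single female library below the highest male library. H19 was 8.11-fold lower in control males (log2 fold change -3.02, SE 0.64, edgeR adjusted p = 0.0025), 10.1-fold lower in Pparg knockout males (-3.33, SE 0.64, edgeR adjusted p = 0.00393) and 6.45-fold lower in Tbet knockout males (-2.69, SE 0.62, edgeR adjusted p = 0.0108). These calls stood when any 1 library of either group was left out. Within 1 batch, with 2 libraries per group, the log2 fold change lay between -4.01 and -2.12, and the adjusted p passed in batch 1 for controls (0.00364) and Pparg knockouts (0.0141) only. Its neighbour Igf2, the ligand of the IGF1 receptor, ranged from 11.4 to 36.7 CPM in females with a median of 18.9 CPM and from 5.48 to 30.1 CPM in males with a median of 15.1 CPM. Its male to female log2 fold changes of -0.49, -0.70 and -0.46 did not pass (edgeR adjusted p = 0.224, 0.133 and 0.333). In controls limma voom with quality weights gave Igf2 -0.89 (adjusted p = 0.0421), and leaving out 1 library gave -0.67 (without female replicate 1) to -0.10 (without female replicate 4), none called.

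Meg3 is a maternally expressed long non-coding RNA of the Dlk1 region. Control females had 50, 131, 59.3 and 234 CPM, Pparg knockout females 79.9, 170, 56.2 and 203 CPM, and Tbet knockout females 67.9, 269, 63.1 and 339 CPM. Control males had 21.6, 88.4, 20.2 and 65.8 CPM, Pparg knockout males 17.6, 88, 14.7 and 80.8 CPM, and Tbet knockout males 45.6, 65, 23.2 and 71.9 CPM. Batch and sex both showed in these values. In batch 1 the 6 female libraries lay between 50 and 79.9 CPM and the 6 male libraries between 14.7 and 45.6 CPM. In batch 2 females lay between 131 and 339 CPM and males between 65 and 88.4 CPM. Taken over both batches, the sexes overlapped within each genotype. Control female replicate 1 is batch 1 by its title but batch 2 by its source name; counted in batch 2, its 50 CPM lies below all 6 male libraries of that batch, and the fit with that batch gave an adjusted p of 0.031, 0.0129 and 0.0131 in the 3 genotypes (edgeR). With batch in the model, Meg3 was 2.48-fold lower in control males (log2 fold change -1.31, SE 0.26, edgeR adjusted p = 0.00156), 2.99-fold lower in Pparg knockout males (-1.58, SE 0.26, edgeR adjusted p = 0.00149) and 2.85-fold lower in Tbet knockout males (-1.51, SE 0.26, edgeR adjusted p = 0.00156). The calls stood without any 1 library, but not without the batch term, where the adjusted p was 0.251, 0.352 and 0.18. Within 1 batch its log2 fold change lay between -2.14 and -0.96, and it did not pass in batch 2 for Pparg knockouts (edgeR adjusted p = 0.102) or in batch 1 for Tbet knockouts (0.138). Its neighbour Dlk1, a membrane protein with EGF repeats, had a median of 1.77 CPM in females (0.566 to 2.9 CPM) and 1.11 CPM in males (0.327 to 2.54 CPM). Dlk1 did not pass in any genotype, with log2 fold changes from -0.61 to -0.22 and SEs of 0.58 to 0.59. The value in controls, -0.57, turned on single libraries: it was -1.55 and called without male replicate 2 (edgeR adjusted p = 0.0405) and 0.04 without female replicate 1 (edgeR adjusted p = 0.964).

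Grb10 binds activated insulin and IGF1 receptors and dampens their signal. Control females had 73.9, 143, 102 and 138 CPM, Pparg knockout females 88.7, 102, 83.5 and 107 CPM, and Tbet knockout females 97.1, 157, 83.3 and 138 CPM. Control males had 68.2, 79.3, 71.5 and 75.9 CPM, Pparg knockout males 56, 76.4, 66.5 and 74.9 CPM, and Tbet knockout males 68.4, 81.9, 69.3 and 66 CPM. The sexes overlapped in controls. They did not overlap in Pparg or Tbet knockouts, which held, in either direction, for 9.06% and 12.4% of all genes. The lowest female library was at 73.9 CPM in batch 1 and at 102 CPM in batch 2. The library at 73.9 CPM is control female replicate 1; in the batch of its source name it lies below the batch 2 males at 74.9 to 81.9 CPM and above the one at 66 CPM. Grb10 was 1.52-fold lower in control males (log2 fold change -0.60, SE 0.13, edgeR adjusted p = 0.00277), 1.40-fold lower in Pparg knockout males (-0.48, SE 0.13, edgeR adjusted p = 0.0264) and 1.62-fold lower in Tbet knockout males (-0.70, SE 0.13, edgeR adjusted p = 0.00245). In Pparg knockouts the call was lost on leaving out female replicate 1, 2 or 3 or male replicate 1, 2 or 4 (edgeR adjusted p = 0.0501 to 0.0954), without a batch term (0.212), with the batch of the source name (0.0735) and with batch fitted separately per sex, a setting added after seeing the data (0.0876). Within 1 batch the log2 fold change lay between -0.99 and -0.37 and passed in batch 2 for controls (0.00712) and Tbet knockouts (0.00521) only.

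Cdkn1c encodes p57, which binds and inhibits cyclin-dependent kinases of the G1 phase. Control females had 56.5, 48.7, 93.1 and 48.8 CPM and control males 53.3, 42, 46 and 29.8 CPM, and the groups overlapped. It was 1.43-fold lower in control males (log2 fold change -0.52, SE 0.18, edgeR adjusted p = 0.0355). The call was lost on leaving out female replicate 2, 3 or 4 or male replicate 1, 3 or 4, with log2 fold changes of -0.51 to -0.40 (edgeR adjusted p = 0.0564 to 0.138); the value of -0.40 was without female replicate 3, the highest library. It did not pass in batch 1 (-0.63, edgeR adjusted p = 0.114) or batch 2 alone (-0.44, edgeR adjusted p = 0.211), nor without a batch term (0.284), with only the control libraries fitted (0.104) or when batch was fitted separately per sex (0.0678). In Pparg and Tbet knockouts Cdkn1c differed by -0.14 and -0.19 (edgeR adjusted p = 0.649 and 0.533).

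Of the remaining genes, Plagl1, a zinc finger transcription factor that regulates other imprinted genes, had a median of 93.5 CPM in females (36.1 to 138 CPM) and 69 CPM in males (43.6 to 92.4 CPM), with log2 fold changes of -0.33, -0.22 and -0.50 that did not pass. Peg3, a large zinc finger protein, had log2 fold changes of 1.06 in controls (SE 0.49, edgeR adjusted p = 0.113), 0.56 in Pparg knockouts and -0.04 in Tbet knockouts. Gnas lay between 1020 and 1300 CPM in females and between 916 and 1390 CPM in males. Its sex differences were at most 0.11 on the log2 scale, with a 95% interval of -0.12 to 0.35 in controls.

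The size of the sex difference was then compared between genotypes, as the knockout effect in males minus that in females. None of the 9 genes passed for Pparg or for Tbet (edgeR), where 0% and 0.00561% of all genes were called. None had an unadjusted p under 0.05, where 1095 and 2050 of all 17824 genes did. DESeq2 called none of the 9, and its share of all genes was not counted. For H19 the difference was -0.31 (95% interval -2.14 to 1.51) for Pparg and 0.33 (-1.45 to 2.11) for Tbet. For Meg3 it was -0.27 (-1.03 to 0.50) and -0.20 (-0.97 to 0.57), and for Grb10 0.12 (-0.27 to 0.51) and -0.10 (-0.48 to 0.29). These intervals are wide for H19 and leave room for a change of the sex difference by more than 2-fold in either direction.

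**Figure D2:**
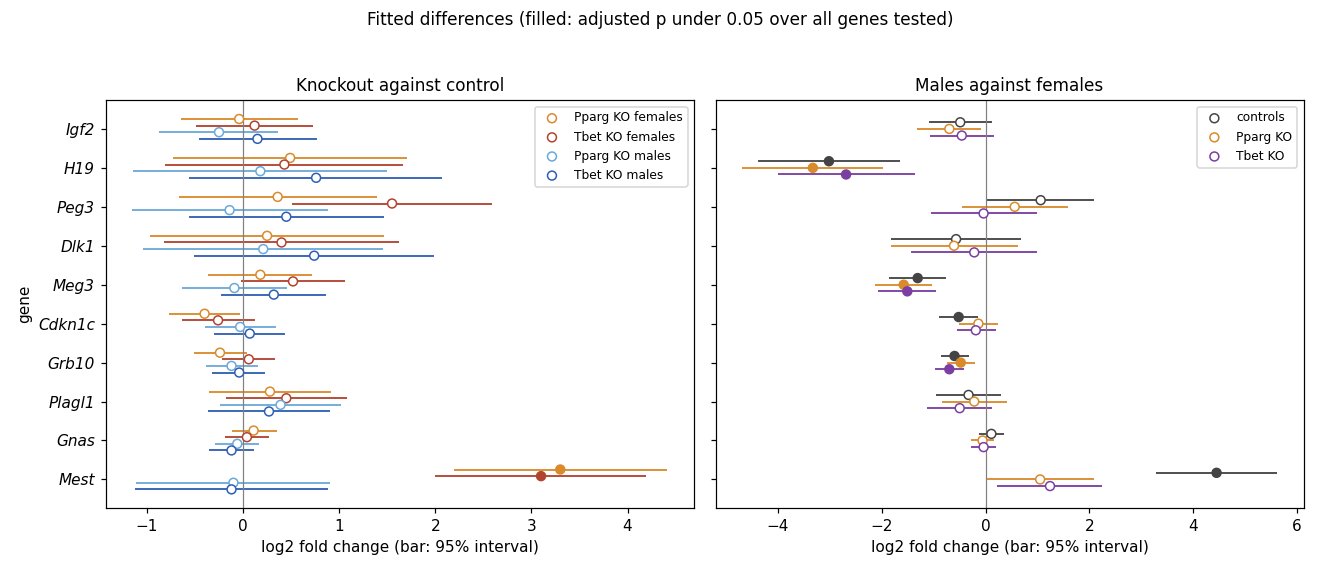
Fitted log2 fold changes of the 9 genes and Mest with 95% intervals, knockout against control on the left and males against females on the right; filled points passed the edgeR test over all genes. On the left only the 2 Mest points in females are filled, and on the right H19, Meg3 and Grb10 are filled in all 3 genotypes.

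Of 54 other imprinted genes tested, 11 were higher and 10 lower in control males, 0 higher and 7 lower in Pparg knockout males, and 1 higher and 7 lower in Tbet knockout males (edgeR), with median log2 fold changes of 0.01, 0.01 and 0.06. Of all genes, 13.6% were higher and 13.6% lower in controls, 3.59% and 5.18% in Pparg knockouts, and 3.93% and 5.38% in Tbet knockouts. In controls Mest was the leading rise in males, 21.9-fold (log2 fold change 4.45, SE 0.55, edgeR adjusted p = 3.88e-05). Of the genes of this list in the imprinted region of Dlk1 and Meg3, Begain and Rian were lower in males in all 3 genotypes, and Mirg (-0.87, -0.91 and -1.15) and Dio3 (-0.77, -0.47 and 0) were not called in any. Begain, which encodes a synaptic protein, changed by -3.21 in controls, -2.61 in Pparg knockouts and -4.03 in Tbet knockouts, and the non-coding RNA Rian by -1.70, -1.49 and -1.53 (edgeR adjusted p at most 0.00179 for both in the 3 comparisons). Of the other genes of the list, Ppp1r9a, which encodes the actin-binding protein neurabin, was lower in all 3 genotypes as well (-1.01, -0.66 and -0.53). So were Dcn (-0.79, -0.81 and -0.96) and Osbpl5 (-0.61, -0.62 and -0.56).

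Around Grb10 and Igf2, the list of IGF and insulin receptor pathway genes had 3 of 20 tested genes higher and 4 lower in control males, 1 higher and 4 lower in Pparg knockout males, and 2 higher and 3 lower in Tbet knockout males. For this list and those below, the shares of all genes called in either direction were 27.2%, 8.77% and 9.31% in the 3 genotypes. The lower ones in all 3 genotypes included Igfbp3, an IGF binding protein (log2 fold changes -2.65, -2.69 and -2.35), Igfbp6, a binding protein with a preference for IGF2 (-1.03, -1.17 and -1.52), and Pappa, a protease that frees IGF from its binding proteins (-2.30, -2.14 and -2.15). Irs1, a substrate of both receptors, was lower in control males (-1.53, SE 0.23, edgeR adjusted p = 0.000177). Around Dlk1, 4 of 18 genes of the DLK1 and Notch list were higher and 2 lower in control males, 0 of 18 were called in Pparg knockouts (edgeR, 2 at an unadjusted p under 0.05) and 3 were higher in Tbet knockout males. Around Cdkn1c, 4 of 16 genes of the CIP/KIP and G1 list were higher and 2 lower in control males; Cdkn2b, an inhibitor of CDK4 and CDK6, was higher in males in all 3 genotypes (1.32, 1.09 and 2.03), and Cdkn1b, the close relative p27, was lower in control males (-0.81) and Tbet knockout males (-0.71). Around Gnas, 6 of 21 genes of the Gs and cAMP list were higher and 2 lower in control males, 0 and 0 in Pparg knockouts (edgeR, 6 at an unadjusted p under 0.05), and 0 and 2 in Tbet knockouts. In Pparg knockouts 4724 of all 17824 genes had an unadjusted p under 0.05.

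Markers of several cell types moved with sex beside H19, Meg3 and Grb10. The 8 pericyte and smooth muscle markers summed to between 1560 and 11100 CPM in females and between 1260 and 2160 CPM in males. In control males 4 of 8 were lower and 2 higher, in Pparg knockout males 4 and 1, and in Tbet knockout males 4 and 2. Of all genes, 13.6%, 5.18% and 5.38% were lower and 13.6%, 3.59% and 3.93% higher in the 3 genotypes. In controls Tagln, a smooth muscle actin-binding protein, changed by -3.37. Notch3 of the same list went the other way, with means of 102 CPM in control males and 68.6 CPM in control females. The 12 adipose stromal progenitor markers summed to between 1450 and 3160 CPM in females and between 1520 and 2120 CPM in males, with 3 lower, Lum, Pi16 and Pdgfra, and 2 higher in control males. In Pparg knockout males 1 was lower and 0 higher, and in Tbet knockout males 2 were lower and 0 higher. The 8 mesothelium markers summed to between 257 and 836 CPM in females and between 75.5 and 448 CPM in males. Of these 8, 1 was lower in control males, 1 in Pparg knockout males and 3 in Tbet knockout males, and 0 were higher. No marker of these lists was at 0 in any library. The 9 macrophage markers were all higher in control males, but only 2 were higher in Pparg knockout males. In Tbet knockout males 0 of 9 were called, with a median log2 fold change of -0.13. Of 8 female reproductive tract markers tested, 5 were lower and 1 higher in control males. In Pparg knockout males 3 were lower and 1 higher, and in Tbet knockout males 2 were lower and 0 higher. Their sums had a median of 94.8 CPM over females and 49.9 CPM over males. The part of these cell types and tissues in the sex difference was not tested. Without the 2 libraries that held reproductive tract transcripts the calls of H19, Meg3 and Grb10 stood in all 3 genotypes, with H19 at -3.10, -3.33 and -2.43.

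**Figure D3:**
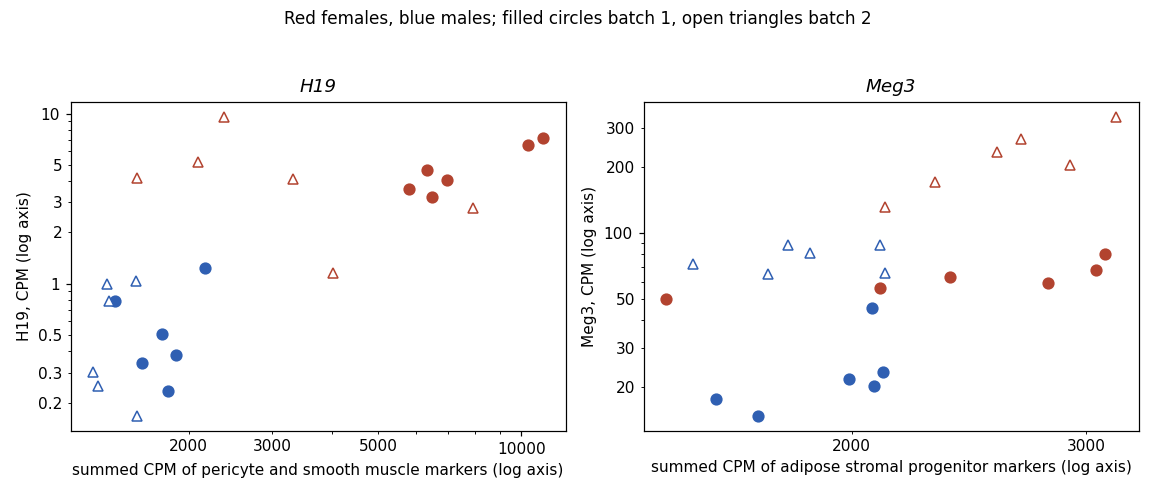
H19 against the summed CPM of 8 pericyte and smooth muscle markers (left) and Meg3 against the summed CPM of 12 adipose stromal progenitor markers (right), 1 point per library on log axes; red females, blue males, filled circles batch 1, open triangles batch 2. Marker sums run from 1260 to 11100 CPM on the left and from 1450 to 3160 CPM on the right, and the sexes overlap along both of these axes.

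The effect of deleting Pparg or T-bet in Foxp3 Cre cells on the 9 genes was then read within each sex. The 2 knockouts of a sex share its 4 control libraries, so their values are not independent. None of the 9 genes passed in any of the 4 comparisons (edgeR), where 0.0168% of all genes were called in Pparg knockout females, 0% in Pparg knockout males, 1.22% in Tbet knockout females and 0.00561% in Tbet knockout males. At an unadjusted p under 0.05 there was 1 gene in Pparg knockout females (Cdkn1c), 1 in Tbet knockout females (Peg3) and 0 in either knockout in males. Of all 17824 genes tested, 2128 and 3088 reached that threshold in Pparg and Tbet knockout females, and 454 and 780 in males. DESeq2 called 1, Peg3 in Tbet knockout females, and 0 in the other 3 comparisons. The share of all genes that DESeq2 called was not counted, and the percentages above are those of edgeR. The median log2 fold change over the 9 genes was 0.18 and 0.40 in Pparg and Tbet knockout females, where all genes tested had -0.02 and -0.04, and -0.06 and 0.27 in males, where all genes had 0 and -0.01. Mest, by contrast, was 9.83-fold and 8.54-fold higher in Pparg and Tbet knockout females (edgeR adjusted p = 0.0395 and 0.0064), with log2 fold changes of -0.10 and -0.12 in males. The difference between the sexes in that effect was -3.40 (edgeR adjusted p = 0.435) for Pparg and -3.21 (edgeR adjusted p = 0.138) for Tbet. Mest was also the one gene of the 54 other imprinted genes tested that was called in either female comparison.

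Peg3 came nearest to a call. Tbet knockout females had 5.78, 121, 12.4 and 47.7 CPM and control females 3.83, 11.9, 5.25 and 31.1 CPM. The groups overlapped, both in these values and after removing batch means. Replicates 2 and 4 of these knockouts, at 121 and 47.7 CPM, had the lowest totals of all libraries, 8345575 and 9463144 counts. The fold was 2.92 (log2 fold change 1.55, SE 0.49, edgeR adjusted p = 0.122), and DESeq2 gave 1.54 with an adjusted p of 0.0266. Over the alternatives to the edgeR fit, DESeq2 included, the log2 fold change ranged from 1 to 1.97 and the adjusted p from 0.0266 to 0.543. Pparg knockout females had 5.62, 32.2, 4.59 and 30 CPM, with a log2 fold change of 0.36 against controls (95% interval -0.67 to 1.39). In males the Peg3 groups overlapped widely, with 8.99, 86, 6.96 and 18.3 CPM in controls, 11.1, 16.5, 8.15 and 55.6 CPM in Pparg knockouts and 20.5, 54.9, 11.5 and 38 CPM in Tbet knockouts. Cdkn1c had 68.9, 37.5, 51.5 and 31.7 CPM in Pparg knockout females and a log2 fold change of -0.40 (SE 0.18, edgeR adjusted p = 0.382).

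The intervals say how large an effect the other genes could have had. For Grb10 the 95% intervals ran from -0.51 to 0.04 and from -0.22 to 0.33 in Pparg and Tbet knockout females, and for Gnas from -0.12 to 0.35 and from -0.19 to 0.27. For Igf2 they ran from -0.65 to 0.57 and from -0.49 to 0.73, and for Plagl1 from -0.35 to 0.91 and from -0.18 to 1.08. For H19 (-0.73 to 1.71 and -0.81 to 1.66) and Dlk1 (-0.97 to 1.47 and -0.82 to 1.62) changes of more than 2-fold lay inside the intervals, at the low counts given above. Meg3 in Tbet knockout females was at 185 ± 141 CPM (SD, n = 4) against 119 ± 84.8 CPM (SD, n = 4) in controls; the log2 fold change was 0.52 (-0.02 to 1.06, edgeR adjusted p = 0.308).

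Among the pathway lists, no gene of the IGF, Notch, CIP/KIP or cAMP lists was called by edgeR in any of the 4 knockout comparisons. At an unadjusted p under 0.05 the counts in this order were 4, 3, 2 and 3 in Pparg knockout females, 3, 4, 4 and 5 in Tbet knockout females, 0, 0, 0 and 1 in Pparg knockout males, and 0, 1, 1 and 2 in Tbet knockout males. Of all 17824 genes, 2128, 3088, 454 and 780 reached that threshold in these 4 comparisons. The nearest was Irs1, with log2 fold changes of -0.78 in Pparg knockout females (edgeR adjusted p = 0.298) and -0.83 in Tbet knockout females (edgeR adjusted p = 0.0772).

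Batch was a large term for several of the 9 genes. In the same model 51.7% of all genes differed between batch 2 and batch 1, and 6 of the 9 did, 3 upward and 3 downward, against 26% and 25.7% of all genes. Peg3 was 5.14-fold higher in batch 2 (log2 fold change 2.36, SE 0.29, edgeR adjusted p = 1.02e-06), between 11.9 and 121 CPM against 3.83 to 20.5 CPM. Meg3 was 3.43-fold higher (1.78, SE 0.15, edgeR adjusted p = 6.9e-09) and Grb10 1.29-fold higher. Igf2 was 1.81-fold, Cdkn1c 1.60-fold and Gnas 1.13-fold lower in batch 2. For H19 the batch difference was -0.05 and for Dlk1 0.08 on the log2 scale, and neither passed. By the titles each group holds 2 libraries of each batch, so batch and group are balanced. With the source name of control female replicate 1, which gives batch 2, the control females would not be balanced.

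Across the 24 libraries the level of each gene was correlated with that of Mest on log2 CPM, 9 relations, with permutation p-values adjusted over all 17823 other genes tested. Mest itself had 22.4, 15.4, 17.2 and 37.7 CPM in control females, 78, 262, 102 and 551 CPM in Pparg knockout females, and in Tbet knockout females 91.8, 313, 264 and 114 CPM. Male libraries ranged from 278 to 662 CPM with a median of 489 CPM, so that low values are female values. Libraries share a group, a sex and a batch, and 25.1% of all genes were called in this correlation. H19 (Pearson r = -0.55, Spearman rho = -0.57, permutation p = 0.00498 and 0.00426, adjusted p = 0.0256 for r), Cdkn1c (r = -0.53, rho = -0.51, permutation p = 0.00833 and 0.0104, adjusted p = 0.0372) and Grb10 (r = -0.50, rho = -0.47, permutation p = 0.0117 and 0.0228, adjusted p = 0.0475) were the 3 called. By rho the permutation p adjusted over all genes was 0.0252 for H19, 0.0468 for Cdkn1c and 0.0805 for Grb10, so the rank measure ends the Grb10 call. Without the 2 libraries that held reproductive tract transcripts the Cdkn1c call was lost (r = -0.52, permutation adjusted p = 0.0556). Peg3 had r = 0.43 (rho = 0.40, permutation p = 0.0372 and 0.0528, adjusted p = 0.11). Igf2 had r = -0.32, Meg3 -0.28, Gnas 0.08, Dlk1 -0.03 and Plagl1 0.

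The relation of H19 and Grb10 to Mest did not hold within a sex. In the 12 female libraries H19 had r = 0.22 and Grb10 0.02, and in the 12 male libraries 0.35 and 0.24, and no gene of 17823 was called in either sex by the permutation test, with 1984 and 547 genes at an unadjusted p under 0.05. Cdkn1c kept a negative r in females (-0.61, permutation p = 0.035, adjusted p = 0.402) and had -0.19 in males. Peg3 had r = 0.55 in females (permutation p = 0.0633, adjusted p = 0.472) and 0.05 in males. Removing batch means left H19, Grb10 and Cdkn1c called (r = -0.55, -0.65 and -0.66) and added Meg3 (-0.56) and Peg3 (0.54), where 36.9% of all genes were called. Within batch 1 alone r was -0.77 for H19, -0.57 for Cdkn1c, -0.73 for Grb10, -0.69 for Meg3 and 0.76 for Peg3, and within batch 2 alone -0.33, -0.75, -0.65, -0.42 and 0.40. Once the means of group and batch were removed, no gene was called, and r was 0.05 for H19, -0.26 for Cdkn1c, -0.02 for Grb10 and 0.41 for Peg3 (permutation p = 0.0403, adjusted p = 0.684). In an edgeR model with group, batch and log2 Mest, none of the 9 genes had a slope that passed, with 0.00561% of all genes called; the steepest of the 9 was Peg3, 0.42 log2 units per log2 unit of Mest (SE 0.22, edgeR adjusted p = 0.696).

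Without the 2 libraries farthest from the Mest median, control female replicates 2 and 3, Cdkn1c fell to r = -0.44 and Grb10 to -0.38 and neither passed (permutation adjusted p = 0.12 and 0.188). The Grb10 call held in 4 of the 24 fits that left out 1 library, those without Pparg knockout female replicate 2 or 4, control female replicate 1 or Tbet knockout female replicate 2. The Cdkn1c call was lost without control female replicate 1 or 3, control male replicate 4, Pparg knockout female replicate 1 or 4, Pparg knockout male replicate 2 or Tbet knockout male replicate 2, and the H19 call without control female replicate 3 (r = -0.50).

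**Figure D4:**
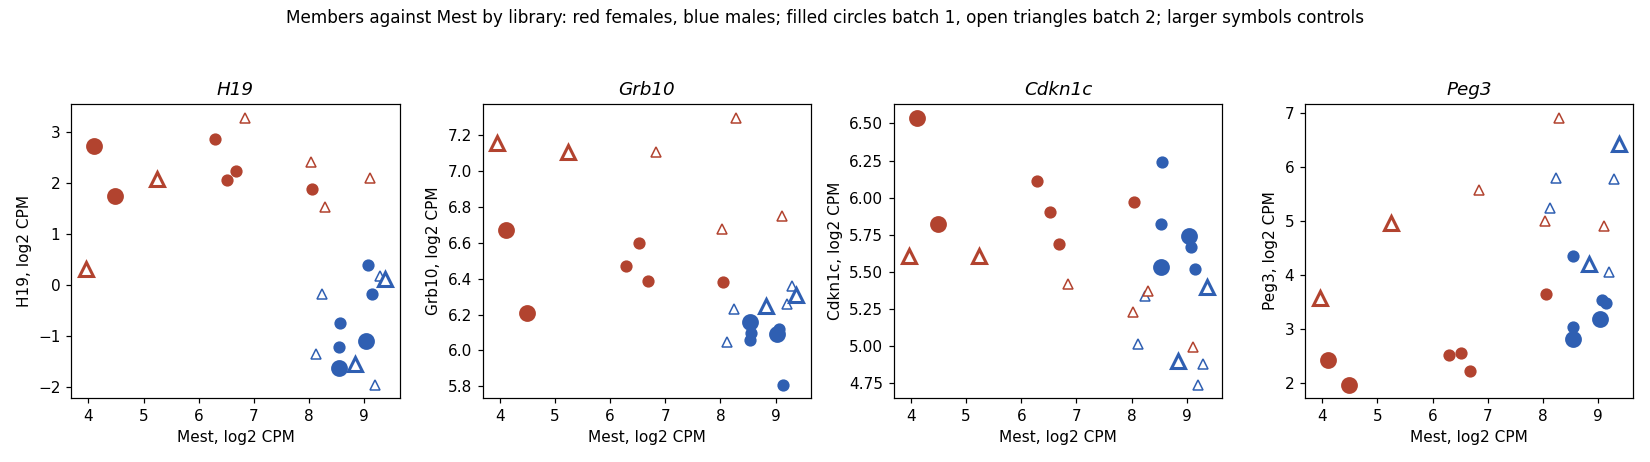
H19, Grb10, Cdkn1c and Peg3 against Mest, all in log2 CPM, 1 point per library; red females, blue males, filled circles batch 1, open triangles batch 2, larger symbols controls. The male libraries form 1 cluster at high Mest with low H19 and Grb10, and the female libraries spread along the Mest axis.

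**Figure D5:**
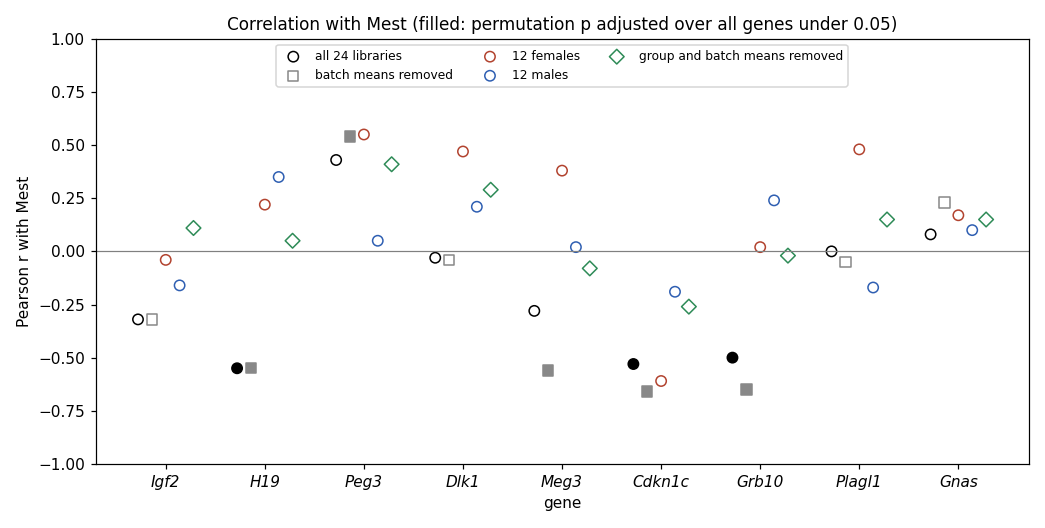
Pearson r of each gene with Mest over all 24 libraries, after removing batch means, in 12 females, in 12 males, and after removing group and batch means; filled symbols have a permutation p adjusted over all genes under 0.05. Filled symbols occur only over all libraries or after removing batch means, and none within a sex.

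For each gene the 3 genes most like it were found by Pearson r over the 24 libraries after removing batch means, as a description; the sex difference enters these values. H19 was closest to Igfbp3 (0.93), Zfp57, a zinc finger protein that maintains imprints (0.93), and Nbl1, a secreted BMP antagonist (0.92). Meg3 was closest to Plekha4 (0.96), its neighbour Rian (0.94) and Lum, the matrix proteoglycan lumican (0.93). Grb10 was closest to Spon2 (0.91), Tagln (0.90) and Fxyd1 (0.90). After group means were also removed, r was 0.62 for H19 and Igfbp3, 0.65 for H19 and Zfp57, 0.65 for Meg3 and Rian, and 0.46 for Grb10 and Tagln. The genes closest to the other members were Cytl1 for Igf2 (0.80), Mapkbp1 for Peg3 (0.83), Ivns1abp for Dlk1 (0.66), the splicing factor Srsf11 for Cdkn1c (0.79), the endothelial receptor thrombomodulin, Thbd, for Plagl1 (0.79) and Napa for Gnas (0.88).

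Among the 9 genes themselves, after removing group and batch means, Igf2 followed Plagl1 (r = 0.77), Peg3 (0.61) and Cdkn1c (0.59), and Gnas followed Grb10 (0.62). The neighbours Igf2 and H19 had r = 0.27 and the neighbours Dlk1 and Meg3 0.12. Before removing these means the closest pair was Meg3 and Grb10 (r = 0.84), both lower in males and higher in batch 2, followed by Igf2 and Cdkn1c (0.82), both lower in batch 2. These are descriptions over 24 libraries that share groups and batches.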

How the data were processed

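Total RNA of whole visceral fat was sequenced in 24 libraries. Per the submitters' processing notes, the authors counted reads per gene with featureCounts, and GRCm38 and mm10 are the builds named; the sources used here give no version, annotation or strand setting, so reads of genes that overlap on the other strand (at Igf2, H19, Meg3, Cdkn1c, Plagl1, Gnas and Mest) cannot be told apart. The log2 FPKM values were deposited by the authors with no stated offset; their distributions are nearly alike across libraries once a constant is added to each gene. Both were read as deposited. Rows without a symbol (1029 genes, 0.433% of counts) stayed in the tests, unnamed.

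Raw counts went into edgeR 4.0.16 (R 4.3.3): filterByExpr by group, scaling by trimmed mean of M values (TMM), and a robust quasi-likelihood F test of a model holding 6 groups and batch for all 24 libraries (17 residual degrees of freedom, common biological coefficient of variation 0.404), 9 comparisons, called at a Benjamini-Hochberg adjusted p under 0.05 over 17824 genes. Log2 CPM used a prior count of 2, and correlations 100000 permutations, two-sided. Alternatives used DESeq2 1.42.0 and limma 3.58.1. The scripts were tested on simulated data. All 9 genes and Mest are named, the 3 genes most like each, and up to 4 called genes per pathway list, or the nearest 1, except for a gene that is not reported here. The members and lists were chosen with earlier results of these data known. The title's batch was used for control female replicate 1, whose source name gives the other batch. Marker lists also covered lymphocytes, endothelium, epithelium, and muscle, pancreas and blood: in control males 5 of 8 endothelial, 4 of 12 adipocyte, 2 of 6 muscle, pancreas and blood, 0 of 9 lymphocyte and 0 of 7 epithelial markers tested were higher. Of all genes 13.6% were higher in control males. The check of replicate numbers found 7 of 28 same-numbered pairs with a correlation over 0.1, so they were not used as pairs. That check was made between groups, and libraries of a group with the same title number in both batches were not compared.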

Additional observations from a re-analysis of the deposited data

Results flagged for a closer look

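Of 54 groups of 4 libraries examined for a single outlying library, 3 held one. For 4 values from 1 normal distribution, chance alone gives about 1 in 20. Here CPM was used without logs and each group mixes 2 batches, so that rate need not apply. Igf2 in Tbet knockout females had 1 library at 36.7 CPM (replicate 3), with the next at 19 CPM. Peg3 in control males had 1 library at 86 CPM (replicate 2), with the next at 18.3 CPM. Dlk1 in control males had 1 library at 2.54 CPM (replicate 2), with the next at 0.615 CPM; without it Dlk1 was called lower in control males (log2 fold change -1.55, edgeR adjusted p = 0.0405), against -0.57 (0.5) with it.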

How the results depend on the processing

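Each count of genes called was recomputed without each library, without the low-count filter, with other tools, scalings and batch terms, and in each batch alone; it stayed within 1.5 times except as follows. In control males against females 2 were called in batch 1 alone, 2 in batch 2 alone and 2 without a batch term. In Pparg knockouts 0 were called in batch 2 alone and 1 without a batch term, in Tbet knockouts 0 in batch 1 alone, and in Tbet knockout females against controls DESeq2 called 1. The shares of all genes called under these alternatives were not counted. Batch alone leaves 2 libraries per group; the other causes were not tested. The replicate numbers as a block left every count of calls as it was (4, 3 and 3 in the sex comparisons, 0 elsewhere), while under that block r with Mest became -0.56 for Meg3, 0.54 for Peg3 and -0.05 for Plagl1; 12 of 24 libraries correlated more with their own number than with the other of their batch. H19 was not tested in Pparg knockout males in the fit of those groups alone.

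The correlations with Mest moved most. Removing batch means gave -0.56 for Meg3 and 0.54 for Peg3, both then called, and -0.05 for Plagl1. In batch 1 alone r was -0.57 for Cdkn1c, 0.67 for Gnas, 0.08 for Igf2, -0.69 for Meg3, 0.76 for Peg3, -0.15 for Dlk1 and 0.50 for Plagl1, and in batch 2 alone -0.75 for Cdkn1c, 0.12 for Dlk1, -0.31 for Gnas, -0.65 for Grb10, -0.33 for H19, -0.56 for Igf2 and -0.55 for Plagl1. In females r was -0.61 for Cdkn1c, 0.47 for Dlk1, 0.02 for Grb10, 0.22 for H19 and 0.38 for Meg3, and in males -0.19, 0.21, 0.24, 0.35 and 0.02, with 0.48 and -0.17 for Plagl1. Removing group and batch means gave -0.26 for Cdkn1c, 0.29 for Dlk1, -0.02 for Grb10, 0.05 for H19 and 0.11 for Igf2. Spearman's rho was 0.05 for Dlk1, -0.47 for Grb10 and -0.11 for Plagl1, the deposited log2 FPKM gave -0.44 for Gnas, and DESeq2 size factors 0 for Plagl1. Without the 2 libraries farthest in Mest r was -0.44 for Cdkn1c and -0.38 for Grb10, and without the 2 libraries with reproductive tract transcripts -0.52 for Cdkn1c, 0.11 for Dlk1 and -0.19 for Plagl1. Leaving out 1 library gave -0.60 to -0.40 for Cdkn1c, -0.18 to 0.10 for Dlk1, 0 to 0.14 for Gnas, -0.61 to -0.40 for Grb10, -0.65 to -0.50 for H19 and -0.19 to 0.12 for Plagl1.

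Depth limits H19 and Dlk1 most, at as few as 4 and 7 reads in a library.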
